A study of Mus musculus with 4 samples.

Results

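The enzymes described here remove superoxide and peroxides in CD8 T cells taken from mouse hepatocellular carcinoma. They are thioredoxin (Txn1), 5 peroxiredoxins (Prdx1, Prdx2, Prdx3, Prdx5 and Prdx6), the glutathione peroxidases Gpx1 and Gpx4, and the superoxide dismutases Sod1 and Sod2. The 10 genes were taken by symbol from a deposited table of read counts for 14934 genes, and all 10 were present and passed the filter on low counts. The study sorted tumour-infiltrating CD8 T cells by flow cytometry on JAML, the junctional adhesion molecule-like surface receptor, into JAML-positive and JAML-negative cells. All cells were of wild-type genotype, and no treatment, strain, age or tumour model is given in the labels. Each group has 2 libraries, replicates A and B. Whether A and B are separate animals, pools or sorts is not stated, so a p-value here reflects nothing beyond library-to-library spread, which may be technical. JAML-negative libraries carry CON in their titles, and groups were taken from the sample descriptions.

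Superoxide leaks from the respiratory chain and is made by NADPH oxidases. Superoxide dismutases turn it into hydrogen peroxide, which peroxiredoxins and glutathione peroxidases reduce to water, drawing electrons from thioredoxin and from glutathione. In T cells, hydrogen peroxide also acts as a signal after receptor stimulation, and the same enzymes limit that signal.

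Total counts were 27717149 and 30569728 for the JAML-positive pair (A, then B), against 27819178 and 27530187 for the JAML-negative pair. Levels are given as CPM, which are counts scaled to a common library size with edgeR's TMM factors. The summed level of 8 T cell markers, among them Cd3e and Cd8a, was 5456 and 4749 CPM in JAML-positive cells, against 4847 and 4969 CPM in JAML-negative cells. Jaml mRNA itself averaged 142 ± 6.53 CPM in JAML-positive cells and 124 ± 9.89 CPM in JAML-negative cells (SD, n = 2 each), a log2 fold change of 0.20 (SE 0.26, edgeR adjusted p = 0.881). One library, JAML-positive replicate A, was unlike the rest. The 76 genes for cytosolic ribosomal proteins held 12.1% of its counts, compared with 7.39% in JAML-positive replicate B and 8.28% and 8.23% in JAML-negative cells. The nuclear RNA Malat1 took 0.0703% of the counts of JAML-positive replicate A and 0.120% of those of JAML-positive replicate B, against 0.146% and 0.142% in JAML-negative cells. Fold changes of the 10 genes, and the counts and median of the whole pathway list, are given with and without JAML-positive replicate A. Medians of most parts of that list are also given both ways.

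Of the 10 antioxidant genes, 7 had higher and 3 had lower fitted levels in JAML-positive cells, and 0 passed the test. The genes with higher values were Txn1, Prdx1, Prdx3, Prdx5, Gpx1, Gpx4 and Sod1, and those with lower values were Prdx2, Prdx6 and Sod2. With edgeR's quasi-likelihood test, adjusted over 11563 tested genes at a threshold of 0.05, the smallest adjusted p among them was 0.609, and 0 of all genes passed (0.0%). At an unadjusted p under 0.05 there was 1 of the 10 (Prdx1), where 7.65% of all tested genes met that limit, and 4.32% met it with a higher level in JAML-positive cells. DESeq2 called Prdx1 (log2 fold change 0.55, adjusted p = 0.0241) and 0 of the other 9 genes, where it called 7.65% of all genes and 4.64% as higher. Limma-voom called 0 of the 10 and 0 of all genes, with 1 of the 10 at an unadjusted p under 0.05, where 5.91% of all genes met that limit. The median log2 fold change of the 10 genes was 0.28, against 0.01 for all tested genes. Prdx1 was also the one antioxidant gene whose groups did not overlap, meaning that both libraries of a group lay above both of the other, which held for 38.5% of all tested genes. JAML-positive cells lay above in 20.3% and below in 18.2% of all genes. With 1 of 10 above and 0 of 10 below, the members were not in excess of those shares.

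The sign of most values depended on which JAML-positive library was used. All 10 genes were higher in JAML-positive replicate A than in JAML-positive replicate B, and 8 of the 10 had their highest level of the 4 libraries there. Across all tested genes, 27.1% had their highest level in that library. The summed level of the 10 genes was 1568 and 996 CPM in JAML-positive replicates A and B, against 1018 and 1098 CPM in JAML-negative replicates A and B. Without JAML-positive replicate A the median log2 fold change was -0.12, with 3 genes higher and 7 lower. Without JAML-positive replicate B it was 0.68, with all 10 genes higher. In both cases 0 of the 10 genes passed in edgeR. At an unadjusted p under 0.05 there were 0 without JAML-positive replicate A, where 3.59% of all genes met that limit, and 4 without JAML-positive replicate B, where 7.23% did. For 9 of the 10 genes the larger of the 2 differences within a group exceeded the difference between groups, and Prdx1 was the exception. The share of all tested genes for which this held was not computed. The count therefore sets neither Prdx1 nor the other 9 genes apart from genes at large.

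**Figure D1:**
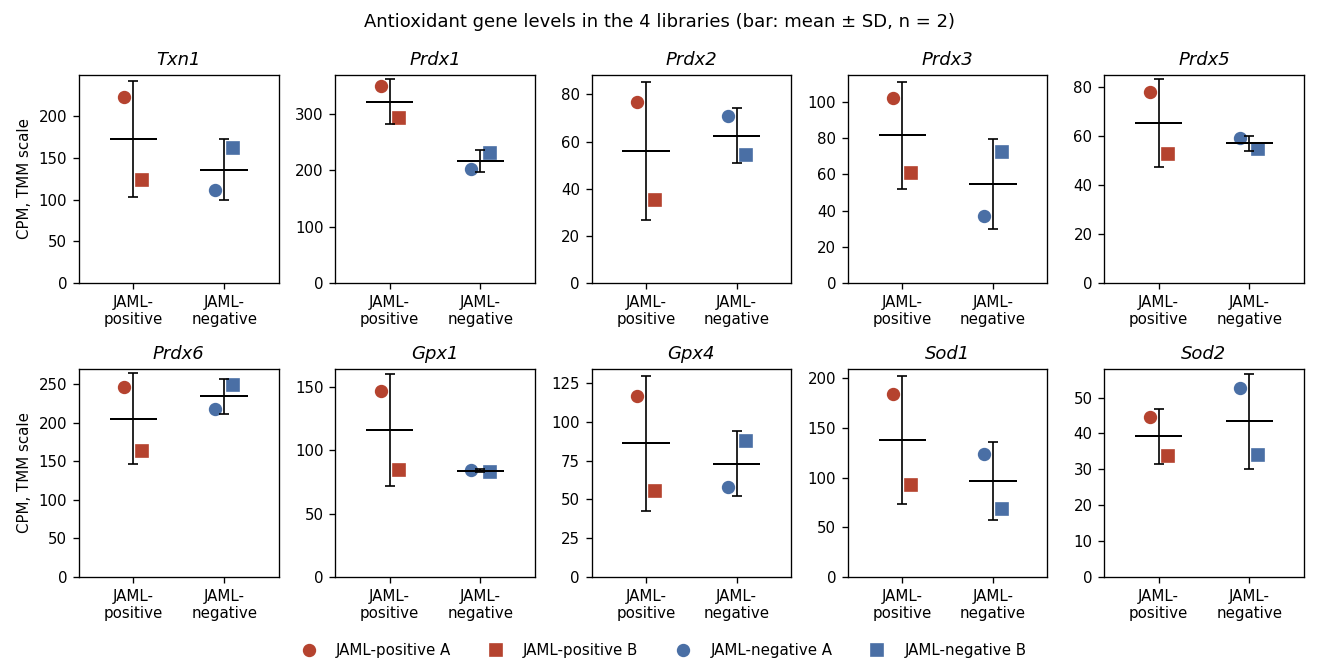
Level of each antioxidant gene in CPM (linear axis from 0) in JAML-positive replicates A and B (red) and JAML-negative replicates A and B (blue), with the mean and SD of each pair. Prdx1 is the gene with both red points above both blue points, and JAML-positive replicate A is the highest point in 8 of the 10 panels.

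Thioredoxin is the small cytosolic protein that passes electrons from NADPH, through thioredoxin reductase, to peroxiredoxins and other targets. Its cysteine pair lies in a short motif, shown here because it is the site that hands electrons to the cytosolic peroxiredoxins below. The stretch is from the coding sequence of the GENCODE transcript (chromosome 4, GRCm38), 5′ to 3′ on the coding strand, with the cysteine codons 32 and 35 in capitals, counted from the start codon.
Txn1: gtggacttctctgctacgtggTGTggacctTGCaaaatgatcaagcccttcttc

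Txn1 (Entrez 22166, chromosome 4, 57943373 to 57956411, GRCm38) had 223 and 124 CPM in JAML-positive replicates A and B, against 111 and 162 CPM in JAML-negative replicates A and B. The groups overlapped, since JAML-negative replicate B lay above JAML-positive replicate B. The log2 difference between groups was 0.34 (SE 0.32; adjusted p = 0.82 in edgeR), with a 95% interval from -0.37 to 1.04. Without JAML-positive replicate A it was -0.13, and with trends in transcript length and GC content removed it was -0.085. Its sign therefore differed between settings.

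Peroxiredoxins reduce peroxides with a cysteine that is oxidised in each cycle. Prdx1 and Prdx2 work in the cytosol, Prdx3 in the mitochondrial matrix and Prdx5 in mitochondria, peroxisomes and cytosol, and these depend on thioredoxin. Prdx6 differs in using glutathione for its reduction, and it also carries phospholipase activity. The codons around that cysteine are shown because they are the part the enzymes share. Each stretch is 45 bases of the coding strand of the GENCODE transcript (GRCm38), with the codon of the peroxidatic cysteine in capitals.
Prdx1: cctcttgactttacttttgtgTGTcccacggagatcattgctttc
Prdx2: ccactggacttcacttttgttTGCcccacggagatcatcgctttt
Prdx3: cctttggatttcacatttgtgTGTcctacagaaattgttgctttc
Prdx5: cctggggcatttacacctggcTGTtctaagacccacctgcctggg
Prdx6: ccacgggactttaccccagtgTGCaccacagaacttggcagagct
Over these bases Prdx1 was identical to Prdx2 at 38 positions and to Prdx3 at 35, but to Prdx6 at 23 and to Prdx5 at 21. The capital codon is number 52 in Prdx1, 51 in Prdx2, 109 in Prdx3, 96 in Prdx5 and 47 in Prdx6.

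Prdx1 (Entrez 18477, chromosome 4, 116685599 to 116700000) had the most counts of the 10 genes in the JAML-positive libraries. Its counts were 9253 and 9184 in the JAML-positive pair, against 5742 and 6363 in the JAML-negative pair. Scaled, these were 350 and 294 CPM in JAML-positive cells and 203 and 231 CPM in JAML-negative cells. The groups did not overlap, JAML-positive being higher, and the pairs were close, with replicate A minus B at 0.25 in JAML-positive and -0.19 in JAML-negative cells on the log2 scale. The means were 322 ± 39.8 CPM in JAML-positive cells and 217 ± 19.7 CPM in JAML-negative cells (SD, n = 2 each), a log2 fold change of 0.57 (SE 0.23, unadjusted p = 0.0281 and adjusted p = 0.609 by edgeR) with a 95% interval from 0.07 to 1.06. On the linear scale the interval runs from 1.05-fold to 2.08-fold. The value was above 0 under each of the 18 settings run, between 0.37 with length and GC trends removed, where the unadjusted p was 0.0728, and 0.68 without JAML-positive replicate B. Without JAML-positive replicate A it was 0.44. Over the 18 settings its adjusted p passed with DESeq2 alone.

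Prdx1 is a known target of the transcription factor NRF2, which acts at antioxidant response elements, so its promoter is shown. The window runs from 250 bases before to 50 bases after the RefSeq start (GRCm38.p6, chr4:116685349-116685648, plus strand), 5′ to 3′, with a match to the element's core in capitals.
Prdx1: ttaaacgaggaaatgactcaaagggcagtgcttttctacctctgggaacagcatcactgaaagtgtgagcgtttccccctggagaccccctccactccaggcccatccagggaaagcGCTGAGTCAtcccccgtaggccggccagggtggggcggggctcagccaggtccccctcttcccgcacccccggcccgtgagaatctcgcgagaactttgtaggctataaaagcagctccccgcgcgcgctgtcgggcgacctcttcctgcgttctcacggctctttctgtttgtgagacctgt
The core searched was TGACNNNGC on both strands. The match starts 133 bases upstream of the start, on the minus strand, and it overlaps TGANTCA, the motif of AP-1 factors, which the window holds at 2 places. Of the 10 genes 9 had a window in the RefSeq table (not Prdx6), and 2 of these 9 held the core, Prdx1 and Sod1. Among the 11728 genes of the count table with a window, 16.9% held it, and 6.38% held TGANTCA. In Sod1 the match was GCGTGGTCA, 56 bases upstream of the start, on the minus strand.

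Prdx3 (Entrez 11757, chromosome 19, 60864066 to 60874538) had the same fitted log2 fold change as Prdx1, 0.57, with a wider error (SE 0.42, edgeR adjusted p = 0.748). Its levels were 102 and 60.8 CPM in JAML-positive replicates A and B, against 37.0 and 72.2 CPM in JAML-negative replicates A and B. JAML-negative replicate B lay above JAML-positive replicate B, and in JAML-negative cells replicate A minus B was -0.96 on the log2 scale, a larger gap than that between groups. The log2 fold change was 0.16 without JAML-positive replicate A and 0.91 without JAML-positive replicate B.

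Prdx2 (Entrez 21672, chromosome 8, 84969622 to 84974811) is the peroxiredoxin best known from red blood cells, where it is among the most abundant proteins. It had 76.8 and 35.1 CPM in JAML-positive replicates A and B, against 70.9 and 54.2 CPM in JAML-negative replicates A and B. The JAML-positive libraries were the highest and the lowest of the 4, so the groups overlapped entirely, and the log2 difference between groups was -0.19 (SE 0.43; adjusted p = 0.941 in edgeR). Without JAML-positive replicate A it was -0.83, and without JAML-positive replicate B it was 0.29. Exons of Prdx2 share 173 of 3050 bases with Junb and 177 with Rnaseh2a, both on the opposite strand, and the strand setting of the counting is not given in the sources used here. Junb, an abundant AP-1 gene, was at 1058 and 1080 CPM in JAML-positive cells, against 1079 and 1293 CPM in JAML-negative cells, and its part in the counts of Prdx2 was not tested. Haemoglobin transcripts were seen in the JAML-positive libraries, with 718 and 268 counts of Hbb-bs, against 0 and 0 in JAML-negative cells. Hba-a1 had 591 and 128 counts in JAML-positive cells, against 0 and 1 in JAML-negative cells. Over the 4 of 9 erythroid markers analysed here the summed level was 50.5 and 15.9 CPM in JAML-positive cells, against 0.0 and 0.0363 CPM in JAML-negative cells. Prdx2 was highest in JAML-positive replicate A, with the most of these markers, and lowest in JAML-positive replicate B, with the next most, and their part in its level was not tested.

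Prdx5 (Entrez 54683, chromosome 19, 6906697 to 6910106) had 77.8 and 52.6 CPM in JAML-positive replicates A and B, against 58.9 and 54.7 CPM in JAML-negative replicates A and B. JAML-positive replicate A was the highest library and JAML-positive replicate B the lowest. The log2 difference between groups was 0.19 (SE 0.38; adjusted p = 0.931 in edgeR), and -0.11 without JAML-positive replicate A. Prdx5 shares 409 of its 2139 exonic bases with Trmt112 on the opposite strand, which had 72.7 and 45.0 CPM in JAML-positive cells, against 22.5 and 74.8 CPM in JAML-negative cells.

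Prdx6 (Entrez 11758, chromosome 1, 161240112 to 161251210) had 246 and 163 CPM in JAML-positive replicates A and B, against 218 and 249 CPM in JAML-negative replicates A and B. It was the member with the most counts in the JAML-negative libraries, at 6155 and 6869. JAML-negative replicate B was highest and JAML-positive replicate B lowest, with the other libraries between them. The log2 difference between groups was -0.20 (SE 0.26; adjusted p = 0.881 in edgeR), with a 95% interval from -0.76 to 0.37. It was -0.51 without JAML-positive replicate A and 0.071 without JAML-positive replicate B.

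Glutathione peroxidases reduce peroxides with a selenocysteine, which is read from an in-frame TGA codon that elsewhere ends translation. Gpx1 acts on soluble peroxides in cytosol and mitochondria, and Gpx4 reduces lipid hydroperoxides in membranes and thereby protects cells, T cells included, from ferroptosis. The stretches around that codon are shown because they mark both transcripts as selenoprotein messages. They are 45 bases each of the coding strand of the GENCODE transcript (GRCm38, chromosomes 9 and 10), with the TGA codon in capitals, codon 47 in Gpx1 and 73 in Gpx4.
Gpx1: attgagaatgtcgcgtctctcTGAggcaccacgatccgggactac
Gpx4: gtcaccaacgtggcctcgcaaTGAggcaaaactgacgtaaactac
The stretches were identical at 25 of the 45 positions.

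Gpx1 (Entrez 14775, chromosome 9, 108339080 to 108340342) had 147 and 84.8 CPM in JAML-positive replicates A and B, against 84.8 and 83.3 CPM in JAML-negative replicates A and B. A single library was high, and the other 3 lay within 83.3 to 84.8 CPM. The log2 fold change of 0.45 (SE 0.34, edgeR adjusted p = 0.751) was 0.016 without JAML-positive replicate A and 0.80 without JAML-positive replicate B.

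Gpx4 (Entrez 625249, chromosome 10, 80047166 to 80056439) had 117 and 55.5 CPM in JAML-positive replicates A and B, against 58.3 and 88.0 CPM in JAML-negative replicates A and B. The JAML-positive libraries were again the highest and the lowest, apart by 1.08 on the log2 scale, while the log2 difference between groups was 0.22 (SE 0.41, edgeR adjusted p = 0.918). The value was -0.39 without JAML-positive replicate A, 0.68 without JAML-positive replicate B and -0.045 without JAML-negative replicate A.

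Superoxide dismutases act upstream of these enzymes. Sod1, the copper and zinc enzyme of the cytosol, and Sod2, the manganese enzyme of the mitochondrial matrix, are unrelated in sequence. Sod1 (Entrez 20655, chromosome 16, 90220762 to 90226333) had 184 and 92.8 CPM in JAML-positive replicates A and B, against 124 and 68.8 CPM in JAML-negative replicates A and B. In both groups replicate A was higher than replicate B, by 0.99 in JAML-positive and 0.85 in JAML-negative cells on the log2 scale. The log2 difference between groups was 0.50 (SE 0.38; adjusted p = 0.754 in edgeR). Without JAML-positive replicate A it was -0.055, and without JAML-positive replicate B it was 0.92.

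Sod2 (Entrez 20656, chromosome 17, 13007839 to 13018119) had the fewest counts of the 10 genes in JAML-negative replicate B and in JAML-positive cells. Its levels were 44.6 and 33.8 CPM in JAML-positive replicates A and B, against 52.8 and 34.0 CPM in JAML-negative replicates A and B. The groups overlapped, at a log2 difference of -0.16 (SE 0.46, edgeR adjusted p = 0.954). Without JAML-positive replicate A it was -0.36, and without JAML-positive replicate B it was 0.029. This mitochondrial enzyme and its cytosolic counterpart had fitted values of opposite sign, a difference that was not tested.

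**Figure D2:**
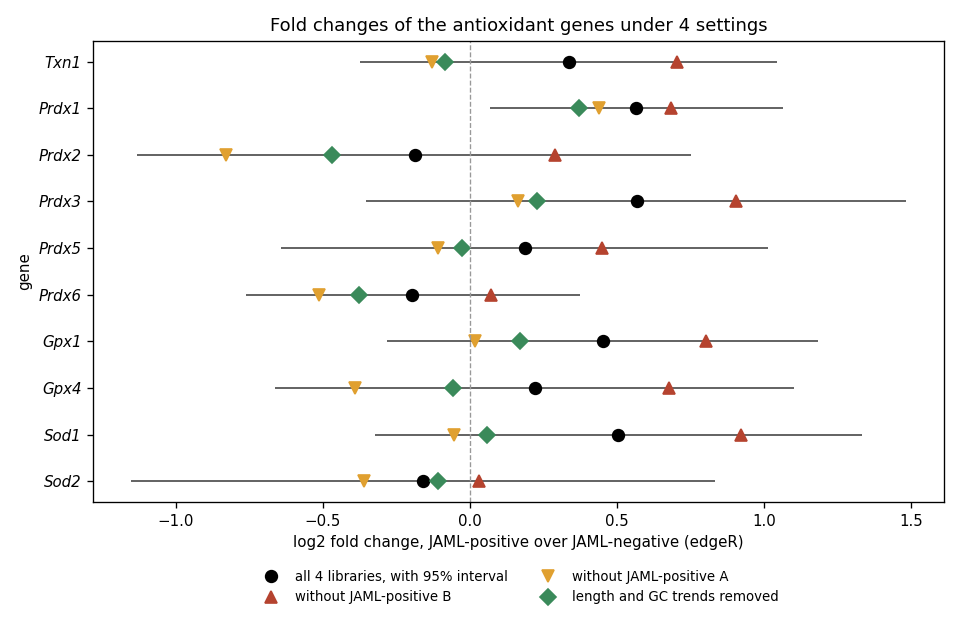
Log2 fold change of each gene, JAML-positive over JAML-negative, from edgeR. Black points and lines are the fit to all 4 libraries with its 95% interval, triangles are fits without JAML-positive replicate B (pointing up) or A (pointing down), and diamonds are fits with length and GC trends removed. Prdx1, Prdx3 and Gpx1 are the genes with all 4 points above 0, and the Prdx1 interval is the one that does not include 0 (0.07 to 1.06).

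Between genes, levels can be compared only per length. Per kilobase of the chosen GENCODE transcript, Sod1 was highest in both groups, at 216 ± 100 CPM per kilobase in JAML-positive and 150.0 ± 60.9 in JAML-negative cells (SD, n = 2 each). Txn1 followed at 165 ± 66.2 CPM per kilobase in JAML-positive and 130.0 ± 34.8 in JAML-negative cells (SD, n = 2 each). Sod2 was lowest, at 6.68 ± 1.3 CPM per kilobase in JAML-positive and 7.41 ± 2.27 in JAML-negative cells. Prdx1, Gpx1, Gpx4 and Prdx6 lay between 85.8 and 140.0 CPM per kilobase in JAML-positive cells and between 76.3 and 97.9 in JAML-negative cells, and Prdx3, Prdx5 and Prdx2 below them. In JAML-positive cells the gap from Prdx2 to Sod2 was the one between neighbours in this order that exceeded their summed SDs. In JAML-negative cells such gaps lay between Prdx1 and Gpx1, between Gpx4 and Prdx5, and between Prdx3 and Sod2. The order rests on the transcript chosen. With the median length of the coding transcripts in place of the chosen one, Prdx1 came first, at 487 ± 60.2 CPM per kilobase in JAML-positive and 329 ± 29.8 in JAML-negative cells, and Sod2 stood at 86.9 ± 16.9 in JAML-positive and 96.2 ± 29.5 in JAML-negative cells. The median length used for Sod2, 451 bases, is below its coding sequence of 669 bases, so these Sod2 values rest on an incomplete transcript.

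The antioxidant genes have short transcripts, from 641 bases in Sod1 to 2387 in Prdx6, with Sod2 at 5861. Ratios in JAML-positive replicate A varied with length across all tested genes. Relative to the JAML-negative mean, the median log2 ratio in JAML-positive replicate A was 0.55 for the 829 genes under 1000 bases, 0.24 for the 2399 genes from 1000 to 2000, 0.02 for the 4501 genes from 2000 to 4000 and -0.26 for the 3384 longer genes. In JAML-positive replicate B the same medians lay between -0.05 and 0.01. Of the 10 genes, 7 are under 2000 bases. Their log2 ratios in JAML-positive replicate A ran from 0.30 for Prdx2 to 0.93 for Sod1, and the 3 longer genes had 0.69 (Prdx1), 0.08 (Prdx6) and 0.04 (Sod2). With trends in length and GC content removed, the median log2 fold change of the 10 genes was -0.04, against -0.06 for all tested genes, with 4 genes higher and 6 lower and 0 passing. The values of Txn1, Prdx5 and Gpx4 had the other sign in that fit (-0.085, -0.027 and -0.059). The Prdx1 value was 0.37 in that fit (SE 0.19, edgeR unadjusted p = 0.0728 and adjusted p = 0.59), against 0.57 without the correction, so it no longer met the unadjusted limit. The classes depend on the transcript chosen, since the median coding transcript is 661 bases for Prdx1, 959 for Prdx6 and 451 for Sod2. Prdx6 and Sod2 have 2 coding transcripts each, and the shorter was taken as the median. For Sod2 it is shorter than the coding sequence of 669 bases, so it is an incomplete transcript. By median length 7 of the 10 genes, Prdx1, Prdx6 and Sod2 included, fall under 1000 bases. In that class the median log2 ratio in JAML-positive replicate A was 0.16, against -0.26 for genes over 4000 bases. With trends in that length removed, the median of the 10 genes was 0.11, with 7 higher and 3 lower, so Txn1, Prdx5 and Gpx4 kept a positive sign. Prdx1 was at 0.37 there too (SE 0.21, edgeR unadjusted p = 0.0994 and adjusted p = 0.625). Pseudogenes at least 95% identical to the coding sequence over at least 100 bases exist for 5 of the genes. The longest match covered 99.5% of the coding bases of Prdx1, all of those of Prdx2 and Sod1, 97.2% of Txn1 and 93.4% of Gpx4. The treatment of reads with several matches is not given in the sources used here, so the counts of these 5 genes carry that uncertainty.

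**Figure D3:**
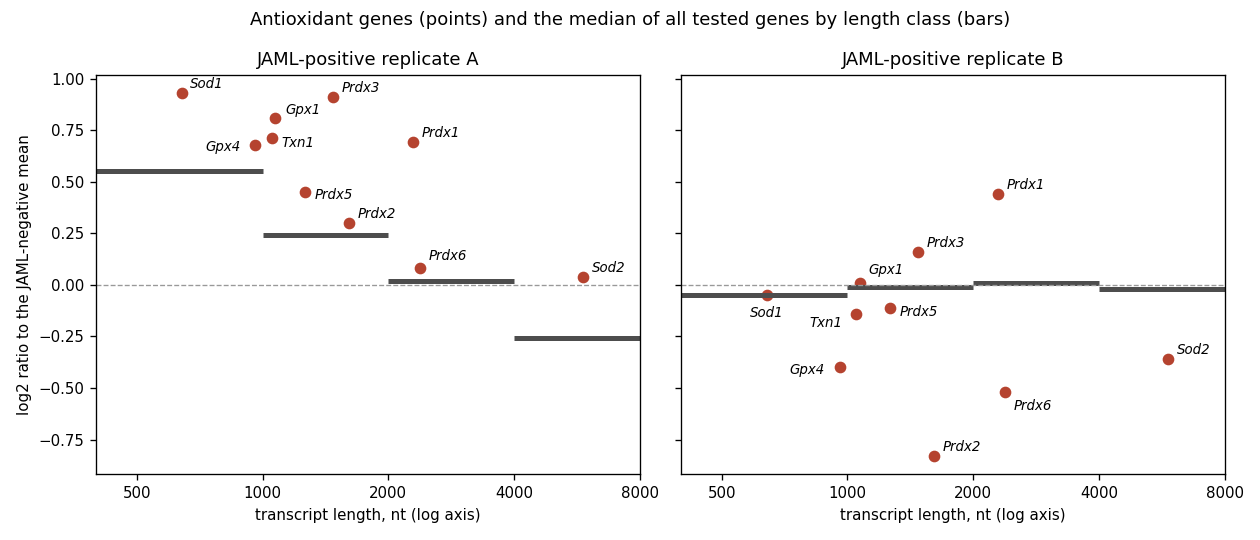
Log2 ratio of each antioxidant gene (points) to the JAML-negative mean against transcript length in bases (log axis), for JAML-positive replicate A (left) and B (right), with the median of all tested genes in each of 4 length classes as bars. In replicate A the bars step down from 0.55 to -0.26 and all points lie above 0, while in replicate B the bars lie near 0 and 3 of the 10 points lie above 0.

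Among the genes whose levels over the 4 libraries were most like the mean of the 10 antioxidant genes were Rpl23a, Nkg7, Eef1b2 and Rbm3. Likeness was the root mean square distance between centred log2 CPM values, among 2248 other genes with a mean of at least 100 CPM, and the distances of these 4 ran from 0.0228 to 0.0261. The mean centred log2 level of the antioxidant genes was 0.47 and -0.26 for the JAML-positive pair, against -0.13 and -0.08 for the JAML-negative pair. Rpl23a encodes a ribosomal protein, Eef1b2 a translation elongation factor subunit, Rbm3 a cold-inducible RNA-binding protein and Nkg7 a protein of cytotoxic granules. Rpl23a, for example, had 2390 and 1430 CPM in JAML-positive cells, against 1630 and 1650 CPM in JAML-negative cells.

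Markers of other cell types also differed between the libraries. Markers of dendritic cells and MHC class II summed to 428 and 250 CPM in JAML-positive replicates A and B, against 111 and 83.7 CPM in JAML-negative replicates A and B. Replicate A of each group had counts for all 11 genes of the list. The 12 macrophage and monocyte markers summed to 218 and 162 CPM in JAML-positive cells, against 87.5 and 82.0 CPM in JAML-negative cells. Mpeg1, a pore-forming protein of phagocytes named after its values were seen, made up much of that sum, at 119 and 89.6 CPM in JAML-positive cells, against 7.5 and 13.9 CPM in JAML-negative cells. Of the 11 tested markers of that list 7 were higher and 4 lower, with a median log2 fold change of 0.11. Plasmacytoid dendritic cell markers, 6 of 7 analysed here, summed to 278 and 345 CPM in JAML-positive cells, against 193 and 177 CPM in JAML-negative cells. Plasma cell markers, 5 of 6 analysed here, summed to 115 and 62.0 CPM in JAML-positive cells, against 4.6 and 0.327 CPM in JAML-negative cells. The dendritic cell, plasmacytoid dendritic cell, macrophage, plasma cell and erythroid sums were higher in both JAML-positive libraries, as was Prdx1, and their part in its level was not tested. In sorted bulk samples, more cells of a type and more RNA per cell cannot be told apart. Pax5 and Blk, which mark B cells, were at 0 in both libraries of at least 1 group. Sums of B cell markers (20.4 and 28.2 CPM in JAML-positive cells, against 14.7 and 22.3 CPM in JAML-negative cells), hepatocyte and liver tumour markers (33.5 and 43.2 CPM, against 70.8 and 32.7 CPM) and endothelial and stromal markers (129 and 148 CPM, against 140.0 and 147 CPM) overlapped between groups. Only 1 of the 8 endothelial and stromal markers reached 10 CPM in any library. Of the 6 tested in that list 5 were higher and 1 lower, with a median log2 fold change of 1.74, and 0 passed in edgeR. NK cell markers summed to 258 and 262 CPM in JAML-positive cells, against 260.0 and 336 CPM in JAML-negative cells, and the 4 markers of CD4 and regulatory T cells to 199 and 265 CPM, against 230.0 and 210.0 CPM. Neutrophil markers, 2 of 6 analysed here, were at 0.0 CPM in JAML-positive cells and at most 0.0363 CPM in JAML-negative cells.

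The other genes of the pathway were taken from a list of 63 partners, regulators and sources of oxidants, of which 57 were tested. Of these 57, 33 had higher and 24 lower values in JAML-positive cells, 0 passed the test in either direction, and the median log2 fold change was 0.07. At an unadjusted p under 0.05 in edgeR there were 4 genes, Slc7a11, Slc3a2, Cybb and Sepsecs, of which Slc3a2 and Sepsecs were named after their values were seen. Groups did not overlap for 13 genes with JAML-positive cells above and 10 with JAML-positive cells below. These counts of 57 lie near the shares of all tested genes, which were 20.3% above, 18.2% below and 7.65% at an unadjusted p under 0.05. Without JAML-positive replicate A the list had 28 higher and 29 lower values and a median of -0.04, and 0 passed in edgeR. Txnip, Rac2 and Sepsecs had log2 fold changes of -0.39, -0.32 and -1.80 without that library, against -0.31, -0.20 and -1.86 with it. These genes were picked from the 57 by their values in the fit without that library, so they do not describe the list. Rac2, a GTPase of the NADPH oxidase, was named after its values were seen.

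Partners of thioredoxin and the peroxiredoxins were divided, with 7 higher and 6 lower values, as they were without JAML-positive replicate A. Txnip, the thioredoxin-binding inhibitor that glucose induces, was at 1053 and 934 CPM in JAML-positive replicates A and B, against 1167 and 1296 CPM in JAML-negative replicates A and B. Both JAML-positive libraries lay below both JAML-negative ones, at a log2 fold change of -0.31 (SE 0.19, edgeR adjusted p = 0.679). Txnrd1, the cytosolic thioredoxin reductase, was at 149 and 148 CPM in JAML-positive cells, against 77.4 and 152 CPM in JAML-negative cells, so JAML-negative replicate A alone was low (0.37, SE 0.32). Prdx4, the peroxiredoxin of the endoplasmic reticulum, had 28.4 and 22.5 CPM in JAML-positive cells, against 22.2 and 12 CPM in JAML-negative cells (0.56, SE 0.62). Txn2, the mitochondrial thioredoxin that serves Prdx3, had a log2 fold change of -0.08 (SE 0.36). Srxn1, the sulfiredoxin that restores overoxidised peroxiredoxins, had few counts, with 78 and 96 counts in JAML-positive cells, against 166 and 0 in JAML-negative cells.

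In glutathione synthesis and reduction, 10 genes were higher and 3 lower, with a median log2 fold change of 0.36. Without JAML-positive replicate A the split was 6 higher and 7 lower, with a median of -0.04. Gclc, the catalytic subunit of the enzyme that starts glutathione synthesis, had 67.6 and 64.6 CPM in JAML-positive cells, against 54.6 and 48.1 CPM in JAML-negative cells (0.36, SE 0.37, edgeR adjusted p = 0.833). The modifier subunit Gclm had 16.4 and 9.98 CPM in JAML-positive cells, against 12.5 and 26.4 CPM in JAML-negative cells (-0.58, SE 0.74). Gsr, glutathione reductase, had a log2 fold change of 0.26 (SE 0.34). Slc7a11, the cystine transporter chain that feeds glutathione synthesis, had 192 and 112 counts in JAML-positive cells, against 0 and 0 in JAML-negative cells. Against a floor of 3 counts per JAML-negative library, its JAML-positive mean of 5.42 CPM (7.26 and 3.58 CPM) was 50.4-fold higher. That value covers counting error of the JAML-negative libraries only, and the edgeR adjusted p of Slc7a11 was 0.609. Wide gaps at low counts also occurred within a group. In JAML-negative replicates A and B, Srxn1 had 166 and 0 counts and Ccs had 2 and 732. Its partner chain Slc3a2, which also pairs with other amino acid transporters, was at 207 and 258 CPM in JAML-positive cells, against 312 and 350 CPM in JAML-negative cells (-0.50, SE 0.23, edgeR adjusted p = 0.609).

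Regulators of the response gave 2 higher and 5 lower values, with a median of -0.36, or -0.34 without JAML-positive replicate A. Nfe2l2, which encodes NRF2, had 74.0 and 55.8 CPM in JAML-positive cells, against 121 and 56.1 CPM in JAML-negative cells (-0.46, SE 0.40), and JAML-negative replicate A alone was high. Keap1, the adaptor that directs NRF2 to degradation, had 64.0 and 69.4 CPM in JAML-positive cells, against 26.0 and 63.8 CPM in JAML-negative cells (0.58, SE 0.44). Bach2, a repressor that binds related elements and restrains effector differentiation in T cells, had 63.7 and 73.9 CPM in JAML-positive cells, against 99.2 and 88.4 CPM in JAML-negative cells, with groups that did not overlap (-0.44, SE 0.32, edgeR adjusted p = 0.744). Hmox1, a haem oxygenase and a classic NRF2 target, had few counts, 21 and 19 in JAML-positive cells, against 162 and 26 in JAML-negative cells.

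Catalase, the peroxisomal enzyme that breaks down hydrogen peroxide, had 112 and 82.2 CPM (Cat) in JAML-positive cells, against 115 and 103 CPM in JAML-negative cells (-0.18, SE 0.30). Ccs, the copper chaperone of Sod1, had 390 and 264 counts in JAML-positive cells, against 2 and 732 in JAML-negative cells, with a log2 fold change of -0.21 (SE 1.06), smaller than its error. Ferritin heavy chain Fth1, which stores iron and so limits hydroxyl radical formation, had 637 and 471 CPM in JAML-positive cells, against 423 and 407 CPM in JAML-negative cells (0.42, SE 0.22, edgeR adjusted p = 0.615; 0.19 when JAML-positive replicate A was left out), and the light chain Ftl1 330.0 and 327 CPM, against 315 and 321 CPM (0.05, SE 0.21). Cybb, the catalytic subunit of the phagocyte NADPH oxidase that makes superoxide, had 42.1 and 46.9 CPM in JAML-positive cells, against 24.4 and 8.64 CPM in JAML-negative cells (1.43, SE 0.57, edgeR adjusted p = 0.609). Dendritic cell and MHC class II markers, of which all 9 tested were higher, and the macrophage marker sum, with 7 of 11 higher, were given above, and their part in the level of Cybb was not tested. Of the 6 genes of selenoprotein synthesis, which Gpx1 and Gpx4 depend on, 3 were higher and 3 lower. Sepsecs, the enzyme that forms selenocysteine on its transfer RNA, had 10.6 and 11.6 CPM in JAML-positive cells, against 35.0 and 45.7 CPM in JAML-negative cells (-1.86, SE 0.60, edgeR adjusted p = 0.609). For NADPH supply there were 3 higher and 2 lower values, and all 5 genes of iron storage and lipid peroxidation were higher, with a median of 0.42. Without JAML-positive replicate A the median of NADPH supply was 0.01, against 0.32 with it, and that of iron storage and lipid peroxidation was 0.31, with all 5 still higher. The 6 genes of the NADPH oxidase had a median of 0.03, or -0.40 without that library. The antioxidant genes themselves were given with and without that library above. Among pathway-list genes given a fold change, Gclm (-0.95), Gsr (0.41), Txn2 (-0.17), Cat (-0.41) and Ccs (-0.64) moved by more than 1.5 times without it. Fth1 and Rac2 did so too, and the other pathway-list genes given a fold change did not.

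**Figure D4:**
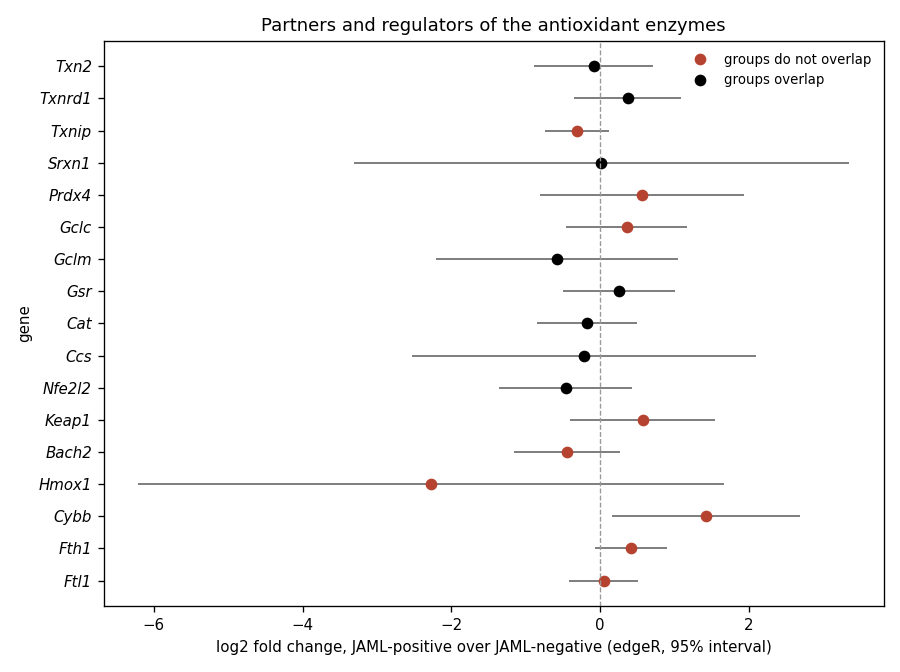
Log2 fold change with 95% interval, JAML-positive over JAML-negative, for 17 partners and regulators of the antioxidant enzymes, in red where the libraries of the groups do not overlap. Slc7a11 is left out because both JAML-negative libraries had 0 counts. Cybb, at 1.43, is the gene whose interval leaves out 0, and none of the 17 genes passed after adjustment over all genes.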

How the data were processed

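Read counts per gene were deposited by the authors as whole numbers for 4 libraries. The submitters' processing notes name the build (GRCm38, mm10). Aligner, counter, strand setting and annotation were not given in the sources used here. Per the labels' protocols, a SMARTER kit for mRNA was used on total RNA. Genes were filtered with filterByExpr (minimum count 10, leaving 11563), scaled by TMM and tested with edgeR 4.0.16 (quasi-likelihood, robust, two-sided, no covariate) in R 4.3.3, with Benjamini-Hochberg adjustment at 0.05. The standard error is the absolute log2 fold change over the square root of the F statistic. Alternatives were DESeq2 1.42.0, limma-voom 3.58.1, other scalings and filters, each library left out, a replicate block, and removal of length and GC trends. The fit was tested on simulated data. Transcript lengths (13795 genes, 92.4%) are of a GENCODE M21 coding transcript, preferring one matched to RefSeq and ranked first by APPRIS. Active-site stretches come from GENCODE and promoters from RefSeq. No molecular identifiers are described, so floors cover counting error only. The members, the gene lists and the rule for named genes (all 10 members, 20 fixed pathway genes whatever their values, and the 5 genes most like the members) were chosen with earlier results of these data known. Of the 20, Sod3 and Nqo1 are not analysed here. Of the 5, 1 is not reported here. Replicates A and B are not said to be paired, and same-letter deviations correlated at 0.02 across genes.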

Additional observations from a re-analysis of the deposited data

How the results depend on the processing

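Under 17 of the 18 settings 0 of the 10 genes passed, and with DESeq2 1 did (Prdx1). Over all genes the count past the threshold was 885 with DESeq2, 2 with no filter on low counts, 2 with at least 30 CPM in 2 libraries, 0 to 11 with a library left out, and 0 with the replicate block. With each library left out in turn, log2 fold changes ran from -0.13 to 0.70 (Txn1), -0.83 to 0.29 (Prdx2), -0.11 to 0.45 (Prdx5), -0.51 to 0.071 (Prdx6), -0.39 to 0.68 (Gpx4), -0.055 to 0.99 (Sod1) and -0.43 to 0.19 (Sod2), all with a change of sign. Those of Prdx1, Prdx3 and Gpx1 kept their sign. With length and GC trends removed, 3 signs changed, to -0.085 (Txn1), -0.027 (Prdx5) and -0.059 (Gpx4), and with the replicate block as well they were -0.073, -0.030 and -0.064. The cause of these changes was not tested. No sign changed under the 3 other scalings, the 3 other filters, limma-voom, DESeq2, the block alone or 2 settings added after seeing the data, edgeR's legacy dispersions and trends in median transcript length and GC removed. Pathway lists without JAML-positive replicate A were also added then. Whether the letters A and B pair libraries across the groups is not stated. Same-letter deviations correlated at 0.018 across all tested genes and at -0.018 across genes with a mean of at least 10 CPM. With 2 libraries per group, such a correlation cannot decide whether same-letter libraries shared an animal or a day. Without 1 library, the lone library of a group was assumed to vary like the other group, the filter kept 12992 to 13246 genes, and the median of all genes was 0.13 without either JAML-negative library. Counting depth was at least 936 per gene and library, and each group has 2 libraries.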
